A study of Mus musculus with 16 samples.

Results

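Hsph1, Hspd1, Hspa8, Nr3c1 and Dusp1 are 3 heat shock chaperone genes and 2 genes of glucocorticoid signalling. BMAL1 binding next to them was described in mouse liver, mapped by chromatin immunoprecipitation and sequencing. The members were all intervals of the merged peak table whose nearest gene, by the authors' annotation and at any distance from the transcription start site (TSS), was 1 of these 5. That gave 9 of 7043 intervals, and the 9 held 12 of the 9986 peaks in the 8 BMAL1 lists. The genes were chosen by their peak calls and peak strength in these lists, so the calls and peak values below are a description and carry no test.

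The tissue was liver of C57bl6 mice aged 8 to 16 weeks, all on a high-fat diet (42% of calories from fat) from the start of the schedules and under 12 h light and 12 h dark. The 4 misaligned groups were male ZT12, male ZT0, female ZT12 and female ZT0, and the 4 control groups were male ZT12, male ZT0, female ZT12 and female ZT0 (ZT counts hours from lights on). How the mice were misaligned is not given in the sources used here. Each group had 1 BMAL1 library, made from tissue pooled from 3 to 4 mice, and an IgG library that was not used here. With 1 library a group, no difference between groups has a replicate check. Pooling of whole liver means that more cells with a bound site and more binding per cell cannot be told apart.

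BMAL1 pairs with CLOCK and binds E-box letters (CACGTG) to drive rhythmic transcription. Heat shock chaperones hold, fold and refold proteins, and many are induced by the factor HSF1 through heat shock elements. Glucocorticoids from the adrenal gland rise each day before the active phase and act in liver through the receptor that Nr3c1 encodes, which binds glucocorticoid response elements and induces, among other genes, Dusp1. Dusp1 encodes a phosphatase that switches off MAP kinases.

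The sequences that carry the result are the promoters in which BMAL1 summits fell at an E-box, and the promoter of Hspe1, which borders that of Hspd1. RefSeq promoter windows (GRCm38.p6, the build of the files) run from 250 bases before to 50 bases after a gene start. They matched 3 of the 5 genes, Hsph1, Hspd1 and Dusp1, and the neighbour Hspe1. Hsph1 and Hspd1 each have a second window, for a RefSeq start farther into the gene, and the window of the outer start of the pair is shown. The Hsph1 gene in RefSeq reaches farther out than that start, to chr5:149636498. Capitals mark matches to the E-box letters CACGTG, the heat shock element GAANNTTCNNGAA and the cAMP response element TGACGTCA, each searched on both strands. The windows were Hspd1, minus strand, chr1:55088194-55088493; Hspe1, plus strand, chr1:55087898-55088197; Hsph1, minus strand, chr5:149636287-149636586; and Dusp1, minus strand, chr17:26508423-26508722.
Hspd1: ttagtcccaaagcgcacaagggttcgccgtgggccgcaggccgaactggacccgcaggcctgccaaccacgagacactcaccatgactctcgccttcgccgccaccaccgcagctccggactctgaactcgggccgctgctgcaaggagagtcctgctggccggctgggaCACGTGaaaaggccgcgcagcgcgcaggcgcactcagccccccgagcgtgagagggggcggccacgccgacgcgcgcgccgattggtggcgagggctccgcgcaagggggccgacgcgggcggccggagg
Hspe1: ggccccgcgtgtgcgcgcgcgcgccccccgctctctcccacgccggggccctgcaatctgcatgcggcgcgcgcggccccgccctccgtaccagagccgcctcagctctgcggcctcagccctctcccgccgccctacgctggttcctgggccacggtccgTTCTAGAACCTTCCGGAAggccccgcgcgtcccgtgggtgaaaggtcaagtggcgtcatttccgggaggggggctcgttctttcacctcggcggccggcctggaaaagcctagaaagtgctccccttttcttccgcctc
Hsph1: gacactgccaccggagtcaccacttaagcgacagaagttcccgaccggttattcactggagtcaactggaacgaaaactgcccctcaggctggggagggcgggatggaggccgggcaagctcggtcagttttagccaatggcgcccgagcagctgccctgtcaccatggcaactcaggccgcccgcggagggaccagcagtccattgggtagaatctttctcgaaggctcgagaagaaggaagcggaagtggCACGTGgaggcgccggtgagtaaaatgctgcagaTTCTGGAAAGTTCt
Dusp1: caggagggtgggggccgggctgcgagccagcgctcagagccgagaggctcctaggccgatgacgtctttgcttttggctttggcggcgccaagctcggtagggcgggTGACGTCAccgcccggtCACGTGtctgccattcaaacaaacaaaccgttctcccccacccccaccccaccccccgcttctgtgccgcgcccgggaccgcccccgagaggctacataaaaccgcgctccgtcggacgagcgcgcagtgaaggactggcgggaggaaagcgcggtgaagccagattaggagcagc
The capitals at Hspd1 are an E-box. Those at Hspe1 are 2 overlapping heat shock elements. The same 2 lie in the window of the second Hspd1 start, not shown, at -138 and -133 bp from it. That window holds no E-box. Hsph1 holds an E-box and, near the end of the window, a heat shock element, and Dusp1 holds a cAMP response element followed by an E-box. E-box letters were in 7.15% of all 32851 promoter windows, heat shock elements in 0.603% and cAMP response elements in 1.79%. Among windows that held a BMAL1 summit, 32.1% had an E-box in male misaligned ZT12 (342 of 1067; exact binomial 95% interval 29.3% to 34.9%). A match is a match of letters only. No window of the 4 genes had the glucocorticoid response element letters GNACANNNTGTNC, which were in 0.475% of all windows.

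**Figure D1:**
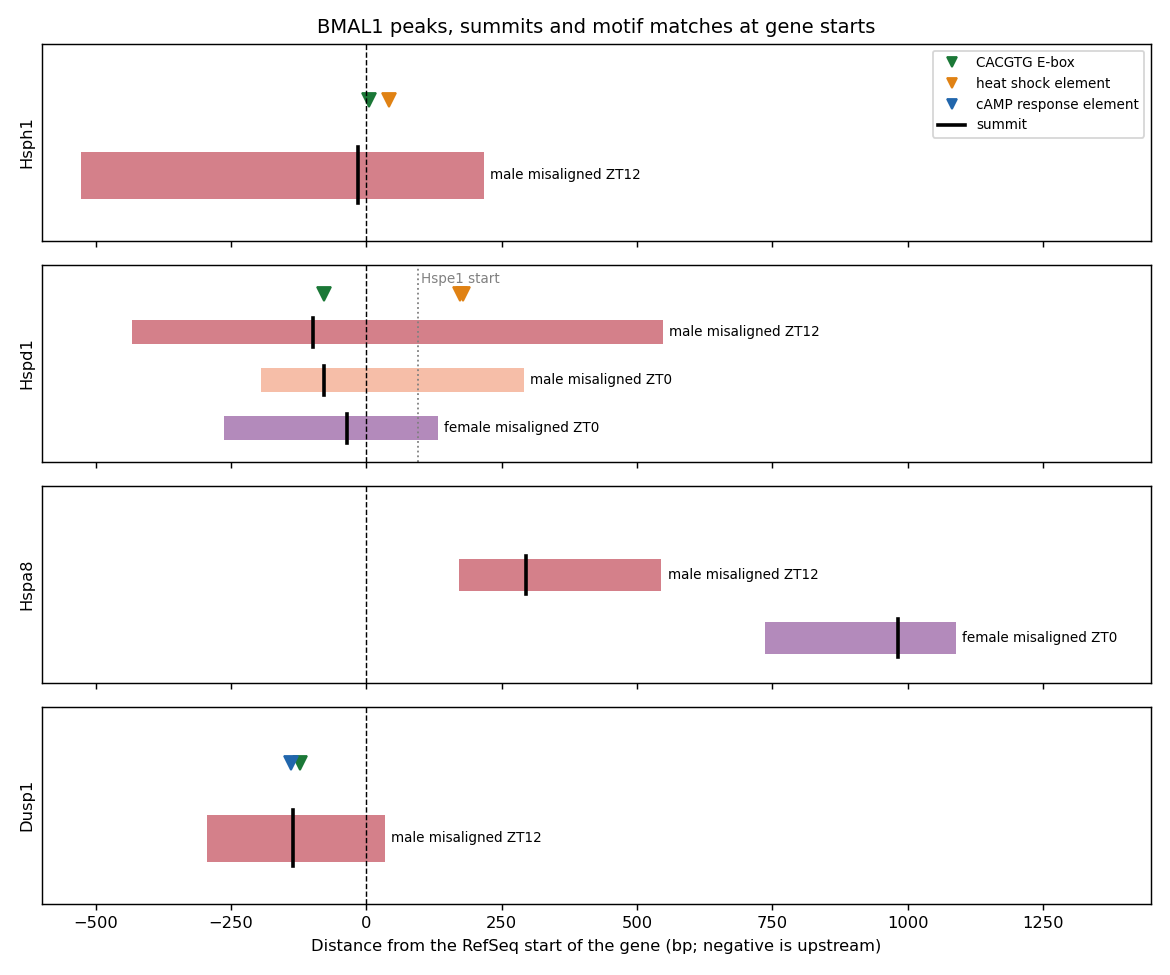
Peaks (bars), summits (black lines) and motif matches (triangles) along the distance in bp from the RefSeq start of Hsph1, Hspd1, Hspa8 and Dusp1, with 1 bar per peak named by its library. For Hsph1 and Hspd1 the start is the one whose window is shown in the text. The summits drawn at Hsph1, Hspd1 and the Dusp1 promoter lie within 50 bp of E-box letters, the intergenic Dusp1 peak is off the axis, and no promoter window of Hspa8 was searched.

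Hspd1 encodes the mitochondrial chaperonin, and it was the gene with the most calls of the 5. Its single interval (chr1:55087695-55088676, 982 bp) spanned the starts of both Hspd1 and Hspe1, the co-chaperonin, 2 genes that are transcribed away from each other and overlap by 96 bp in RefSeq. A peak was called in male misaligned ZT12, male misaligned ZT0 and female misaligned ZT0. None was called in female misaligned ZT12 or in any control library. The authors' table names Hspd1 alone, so the call could equally be counted for Hspe1.

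At the Hspd1 summit, male misaligned ZT12 had 58 fragments (exact Poisson 95% interval 44.0 to 75.0) over a local background of 9.21, a fold enrichment of 5.78 and a -log10 q of 22.8 (the peak caller's measure of how far the pile-up exceeds background, larger for stronger peaks). Male misaligned ZT0 had 44 fragments (32.0 to 59.1) over 9.47, a fold of 4.30 and a -log10 q of 11.5. Female misaligned ZT0 had 51 fragments (38.0 to 67.1) over 7.17, a fold of 6.37 and a -log10 q of 21.5. The intervals of the 3 fragment counts overlap, and they cover counting error only, with no allowance for differences between mice or preparations. The peak stood at rank 559 of 5542 in male misaligned ZT12, 329 of 1864 in male misaligned ZT0 and 175 of 1330 in female misaligned ZT0, inside the strongest 17.7% of each list.

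The 3 Hspd1 summits lay within 63 bp of each other, 20.5 bp (male misaligned ZT12), 0.5 bp (male misaligned ZT0) and 42.5 bp (female misaligned ZT0) from the middle of the E-box. That places them at -98, -78 and -35 bp from the RefSeq start of Hspd1. The 2 heat shock elements of the Hspe1 window, also in that of the second Hspd1 start, were farther off. They were 271 and 276 bp from the male misaligned ZT12 summit. They lay inside the peaks of both male misaligned libraries and outside the peak of female misaligned ZT0. Among all summits in windows with an E-box in male misaligned ZT12, the median distance to it was 25 bp (300 summits), and 71.7% were within 50 bp. The Hspd1 distances are of the size seen at other E-box promoters of these lists.

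Hsph1 encodes a large chaperone that releases nucleotide from Hsp70 proteins and prevents aggregation. It had the highest -log10 q among the 12 peaks, 25.0, and was called in male misaligned ZT12 alone. The interval (chr5:149636119-149636864, 746 bp) covered the RefSeq start, with Gm20005 and Gm45954 also within 10 kb. Its summit held 58 fragments (44.0 to 75.0) over a background of 8.30, a fold of 6.34, at rank 493 of 5542. The summit lay 20.5 bp from the E-box, which sits 4.5 bp after the start whose window is shown, and 58 bp from the heat shock element. E-box and heat shock element both lay under the Hsph1 peak, as they did under the Hspd1 peaks of both male misaligned libraries. Windows with a summit in male misaligned ZT12 held a heat shock element in 4 of 1067 cases (0.375%), and 2 of the 4 were the windows of Hsph1 itself.

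Both of these peaks were broad. The Hsph1 peak was wider than 93.4% of the peaks of male misaligned ZT12, whose median width was 394 bp, and the Hspd1 peak of 982 bp was wider than 98.0%. In the other 2 libraries the Hspd1 peak was narrower, 487 bp in male misaligned ZT0 and 396 bp in female misaligned ZT0.

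Hspa8 encodes the constitutive Hsc70 chaperone, abundant in most cells. It had 2 separate intervals, each with a peak in 1 library. The first (chr9:40801447-40801821, 375 bp) was called in male misaligned ZT12, with 31 fragments (21.1 to 44.0) over 9.65, a fold of 3.00 and a -log10 q of 4.43. The second (chr9:40802013-40802365, 353 bp) was called in female misaligned ZT0, with 33 fragments (22.7 to 46.3) over 8.43, a fold of 3.60 and a -log10 q of 6.29.

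The authors placed both Hspa8 intervals in the promoter, but both lay inside the RefSeq gene (chr9:40801276-40805202). Their summits were 294 and 983 bp after its start and 689 bp apart, with a gap of 191 bp between the intervals. So the gene was called in 2 libraries, and no position in it was called in more than 1. In RefSeq, Snord14c, Snord14d and Snord14e, small nucleolar RNA genes, also lie within 10 kb. Both peaks stood past the middle of their lists, at rank 3315 of 5542 in male misaligned ZT12 and 736 of 1330 in female misaligned ZT0.

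Nr3c1, the glucocorticoid receptor gene, had 3 intervals, more than any of the other 4 genes. The one at the authors' start site (chr18:39489689-39490079, 391 bp, 4 bp) was called in male misaligned ZT12 and in female misaligned ZT0. Male misaligned ZT12 had 37 fragments there (26.1 to 51.0) over 12.0, a fold of 2.91 and a -log10 q of 5.12. Female misaligned ZT0 had 33 fragments (22.7 to 46.3) over 7.52, a fold of 3.99 and a -log10 q of 7.51. The 2 summits were 49 bp apart and the counting intervals overlap.

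The other 2 Nr3c1 intervals were called in male misaligned ZT12 alone and were the weakest of the 7 peaks in that library. The interval at -1337 bp (chr18:39491043-39491407) had 22 fragments (13.8 to 33.3) over 6.87 and a -log10 q of 2.73. That at -7467 bp (chr18:39497180-39497530) had 19 fragments (11.4 to 29.7) over 6.38 and a -log10 q of 1.86. The lowest -log10 q called in that list was 1.31, and both stood toward its end, at ranks 4587 and 5219. All 3 intervals lay inside the RefSeq gene (chr18:39410545-39519421), including the one the authors called intergenic.

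Dusp1 also had 2 separate intervals, each called in 1 library. The promoter interval (chr17:26508438-26508767, 330 bp) was called in male misaligned ZT12, with 36 fragments (25.2 to 49.8) over 11.3, a fold of 3.00, a -log10 q of 5.28 and rank 2905 of 5542. Its summit lay at -135 bp from the RefSeq start (the authors give -879 bp, to another start), and Gm34455 also lies within 10 kb. It fell between the pair of motifs, 4.5 bp from the cAMP response element and 11.5 bp from the E-box. With both motifs so near, the summit does not single out either.

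The second Dusp1 interval (chr17:26522761-26523093, 333 bp) was intergenic, 14289 bp outside the RefSeq gene, and no RefSeq protein-coding gene lay within 10 kb. It was called in male misaligned ZT0, with 19 fragments (11.4 to 29.7) over 4.32, a fold of 3.76 and a -log10 q of 3.50, at rank 1273 of 1864. Here the local background equalled the lowest of the list. Its assignment to Dusp1 rests on nearness alone.

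**Figure D2:**
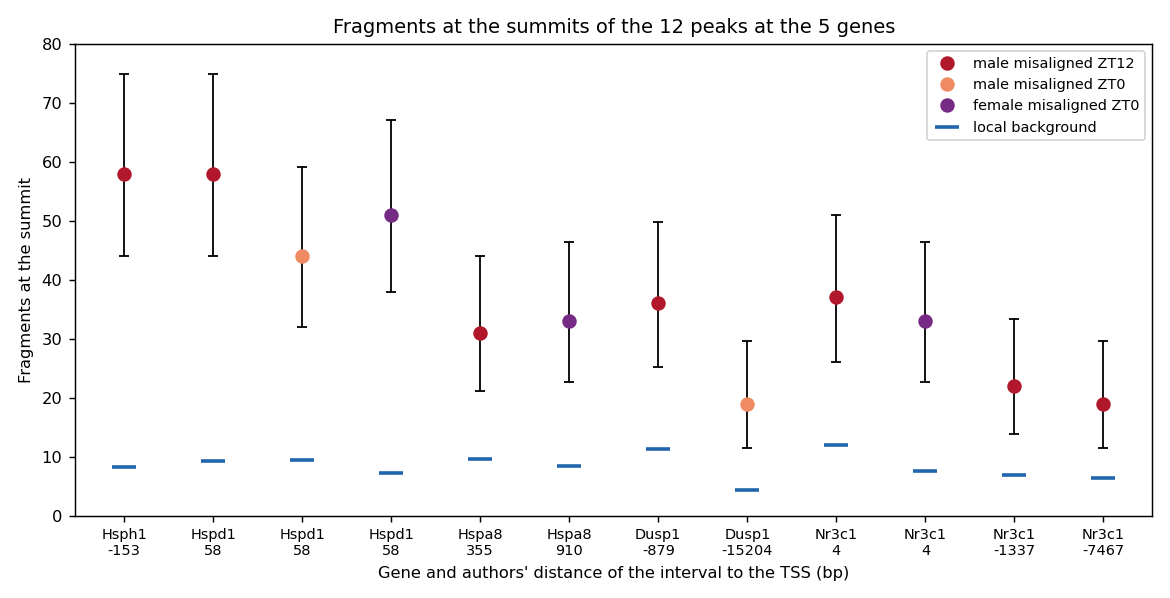
Fragments at the summit of each of the 12 peaks (points, coloured by library, with exact Poisson 95% intervals for counting error) and local background (blue bars), by gene and the authors' distance to the TSS. Hsph1 and Hspd1 stand at 44 to 58 fragments and the 8 other peaks at 19 to 37.

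The 5 genes fall into a stronger and a weaker set within the lists. Hsph1 and Hspd1 had folds of 4.30 to 6.37, above 70.1% to 89.7% of the peaks of their own lists. The 8 peaks at Hspa8, Nr3c1 and Dusp1 had folds of 2.71 to 3.99, above 8.44% to 52.9% of their lists. Local background at the 12 peaks was 1 to 2.83 times the lowest of the list, and none came near the 5 times used to mark peaks of high background, of which each list held 15 to 39.

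**Figure D3:**
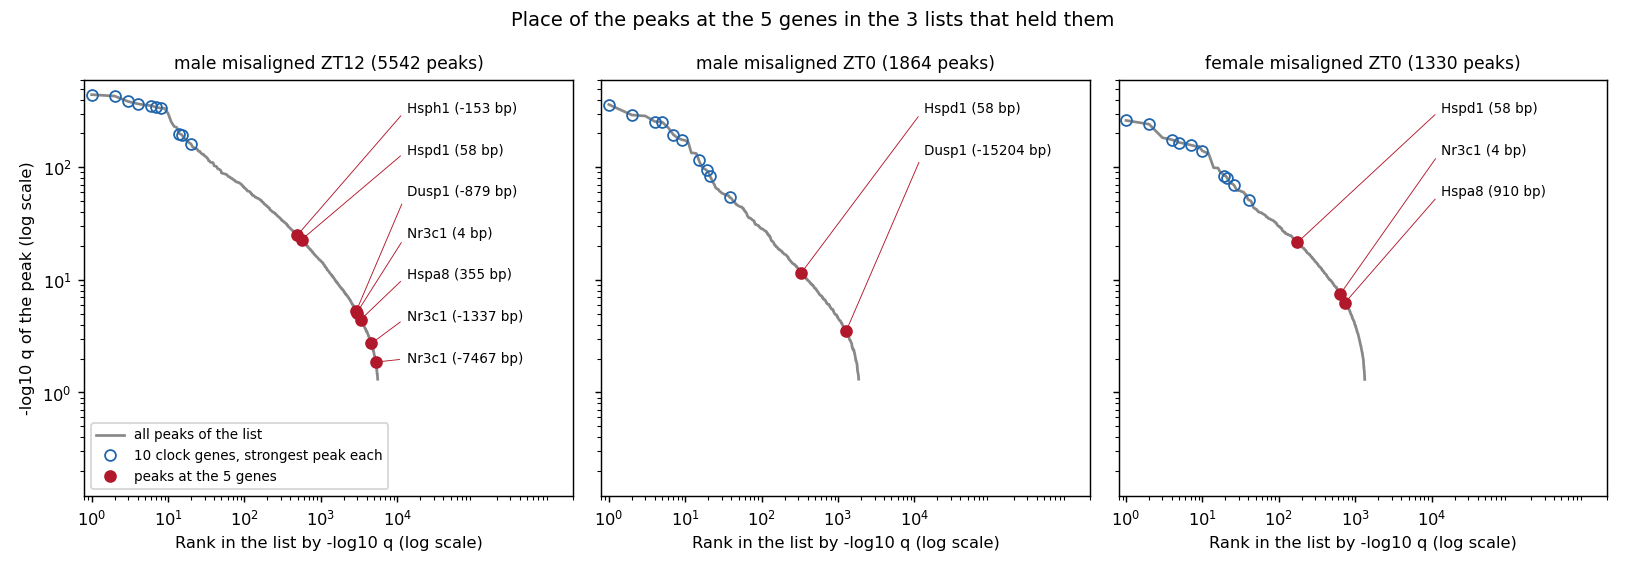
The -log10 q of each peak against its rank in the list, both on log scales, for the 3 libraries that held peaks at the 5 genes, with the 10 clock genes as open circles. The clock genes take ranks 1 to 41 and the peaks at the 5 genes start at rank 175.

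Set against known BMAL1 targets, all 12 peaks were weak. The strongest peaks of 10 clock genes (Per1, Per2, Cry1, Cry2, Nr1d1, Nr1d2, Dbp, Tef, Bhlhe40 and Ciart) were called in all 8 libraries. They had a median fold of 27.4 in male misaligned ZT12, 22.5 in male misaligned ZT0 and 15.9 in female misaligned ZT0. The excess of a peak was taken as its summit fragments above local background, in units of the lowest background found in that list. As a share of the median clock gene excess in the same library, Hsph1 reached 15.6% in male misaligned ZT12, and Hspd1 reached 15.3% in male misaligned ZT12, 18.8% in male misaligned ZT0 and 26.3% in female misaligned ZT0. The other 8 peaks reached 3.97% to 15.3%.

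Calls at the 5 genes were limited to misaligned libraries. Counting a gene once per library, the misaligned libraries had 10 calls of 20 gene-by-library pairs, in 12 peaks, and the control libraries had 0 of 20. Without male misaligned ZT12 the misaligned libraries had 5 calls, and with every list shortened to its strongest 141 peaks, the length of the shortest list, they had 0. At that length, only 0.361% to 0.420% of protein-coding genes were called in each misaligned library. Male misaligned ZT12 held all 5 genes in 7 peaks, where 12.8% of 21896 RefSeq protein-coding genes were nearest to a peak and 78.7% of all intervals were called. Male misaligned ZT0 held Hspd1 and Dusp1 (background 5.06% of genes, 26.4% of intervals), female misaligned ZT0 held Hspd1, Hspa8 and Nr3c1 (3.82%, 18.8%), and female misaligned ZT12 held none (0.594%, 3.08%). Over all protein-coding genes, 5.56% of gene-by-library pairs were called in misaligned libraries and 0.677% in control libraries.

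**Figure D4:**
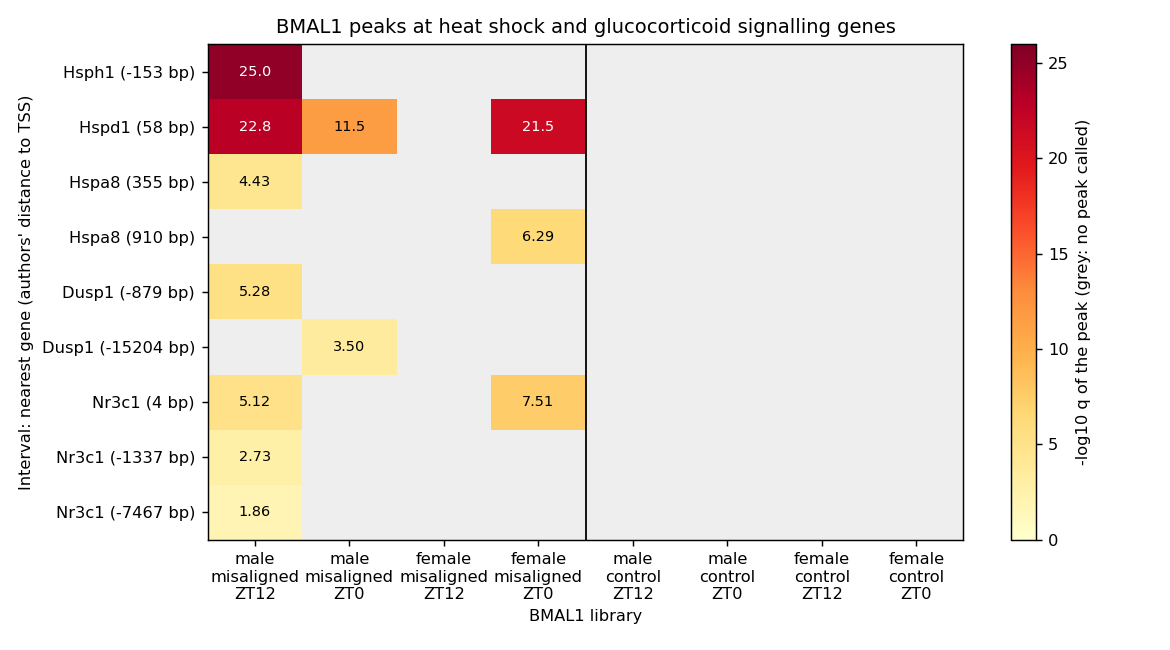
The -log10 q of the peak at each of the 9 intervals (rows, with the authors' distance to the TSS) in the 8 libraries (columns), with grey where no peak was called. All 12 values are in 3 of the 4 misaligned libraries.

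This pattern is common in the table. Of all intervals, 90.0% were called in a misaligned library and in no control library, and 58.3% were called in male misaligned ZT12 alone. As the calls chose these genes, nothing is read from their count. Within pairs of the same sex and time, the share of intervals with a call in the misaligned library and none in its control was 75.5% in male ZT12 (7 of the 9 at the 5 genes), 22.6% in male ZT0 (2 of 9), 2.09% in female ZT12 (0 of 9) and 17.6% in female ZT0 (3 of 9). None of the 9 was called in a control and not its misaligned partner, against 0.895% (male ZT12), 1.42% (male ZT0), 0.965% (female ZT12) and 1.95% (female ZT0) of all intervals.

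The lists differed in length. The misaligned lists had 5542 peaks in male ZT12, 1864 in male ZT0, 221 in female ZT12 and 1330 in female ZT0. The control lists had 290 in male ZT12, 373 in male ZT0, 141 in female ZT12 and 225 in female ZT0. In those 4 control libraries, 4.06%, 5.21%, 1.96% and 3.17% of all intervals were called, and 0.712%, 1.04%, 0.356% and 0.598% of protein-coding genes.

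Whether the 5 genes could have been called in the control libraries depends on what is held fixed. If each summit had kept its enrichment and only the background of the library had changed, 11 of the 12 peaks would have passed the lowest -log10 p called in every library that lacked them. The exception was Nr3c1 at -7467 bp, which passed in 5 of 7. For Hsph1 the scaled -log10 p would have been 29.1 to 41.8, where the lowest called values were 4.55 to 5.52. The lowest background was smallest in male misaligned ZT12 (4.25), so this scaling could not lower the fragments of its 7 peaks. A pass was therefore close to fixed for them, and the part of background in the missing calls was not tested.

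The median clock gene excess was lower in every control library than in its misaligned partner. By median clock gene fold, female ZT12 ran the other way, with 9.62 in control and 8.34 in misaligned. The other pairs ran the same way by fold as by excess. The median clock gene excess was 74.7 in male misaligned ZT12, 42.5 in male misaligned ZT0, 26.9 in female misaligned ZT12 and 33.0 in female misaligned ZT0. In control libraries it was 36.8 in male ZT12, 14.0 in male ZT0, 21.8 in female ZT12 and 11.8 in female ZT0. The difference within a pair was smallest in female ZT12.

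Scaled by the same factor as the clock genes, the 5 genes did not all give the same answer. For peaks of female misaligned ZT0 (median clock gene excess 33.0), this raised the excess in male control ZT12 (36.8). The scaled values start from summits of called peaks, and the calls chose the genes. They are a description, and no cause is read from them. Hspd1, at its level in female misaligned ZT0, would have passed in all 4 control libraries, with -log10 p of 5.48 to 26.5. The 5.48 was in female control ZT0, where the lowest called value was 5.16. At its level in male misaligned ZT0, Hspd1 would have passed in 2 of the 4 (2.84 to 12.7). At its level in male misaligned ZT12 it would have passed in both control ZT12 libraries and in neither control ZT0 library (2.24 to 9.78 over the 4), and so would Hsph1 (2.39 to 10.4). Both would also have passed in female misaligned ZT12, where neither was called, with a scaled -log10 p of 8.79 for Hsph1 and 8.09 for Hspd1, where the lowest called value was 5.45. Hsph1 would have passed too in male misaligned ZT0 (13.1, lowest called 4.55) and female misaligned ZT0 (9.93, lowest called 4.75), where it was not called.

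Most of the weaker peaks would not have passed. Those of male misaligned ZT12 at Hspa8 (0.838 to 2.82), Dusp1 (0.980 to 3.32) and all 3 intervals of Nr3c1 (0.705 to 3.29) would have passed in 0 of the 4 control libraries. The peaks called in female misaligned ZT0 at Hspa8 and Nr3c1 would have passed in 2 of 4, and the intergenic Dusp1 peak of male misaligned ZT0 in 1 of 4. The part that lower enrichment of a library had in the missing calls was not tested.

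By time, the ZT12 libraries had 5 gene calls in 7 peaks, all from male misaligned ZT12, and the ZT0 libraries had 5 gene calls in 5 peaks, from the 2 misaligned ZT0 libraries. Over all protein-coding genes, 3.60% of gene-by-library pairs were called in ZT12 libraries and 2.63% in ZT0 libraries. The direction differed between sexes in misaligned livers, with 5 genes at ZT12 and 2 at ZT0 in males, and 0 at ZT12 and 3 at ZT0 in females. The list totals ran the same way, 5542 and 1864 peaks in misaligned males and 221 and 1330 in misaligned females. In misaligned males, Hspd1 had a peak in 1 interval at both times, and Dusp1 had its promoter peak at ZT12 and its intergenic peak at ZT0.

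By sex, male libraries had 7 gene calls of 20 pairs, in 9 peaks, and female libraries had 3 of 20, in 3 peaks. Over all protein-coding genes, 4.89% of gene-by-library pairs were called in male libraries and 1.34% in female libraries. Hspd1, Hspa8 and Nr3c1 were called in both sexes, and Hsph1 and Dusp1 in males alone. The share of all genes called in both sexes was not counted, so nothing is read from this split. Every female call was from misaligned ZT0. At the 3 genes called in both, male misaligned ZT12 had folds of 5.78 (Hspd1), 2.91 (Nr3c1) and 3.00 (Hspa8), and female misaligned ZT0 had folds of 6.37, 3.99 and 3.60, with Hspa8 at a different position. Folds from different libraries rest on different backgrounds and are set side by side only.

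By the authors' annotation, most of the 9 intervals were at or near gene starts. The authors' annotation put 7 of the 9 in promoters, where it put 33.6% of all 7043 intervals. By its distances, 6 of 9 were within 1 kb of the TSS, as were 28.7% of all. Hspa8 and Nr3c1 each gave more than a single promoter interval, and theirs lay inside the RefSeq gene. By library, 6 of 7 were promoter intervals in male misaligned ZT12 (33.2% of its intervals), 1 of 2 in male misaligned ZT0 (42.7%) and 3 of 3 in female misaligned ZT0 (56.7%). Number of libraries was like that of the table, with 7 of 9 called in 1 library (78.5% of all intervals), 1 in 2 libraries (12.2%) and 1 in 3 (4.53%).

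A wider list of 40 heat shock and chaperone genes had 11 with a peak nearest to them in male misaligned ZT12 (27.5%, beside 12.8% of protein-coding genes). The members Hsph1, Hspd1 and Hspa8 are in the list and among the 11. Their calls chose them, so part of the list's counts was fixed by that choice. Male misaligned ZT0 had 5 (beside 5.06%), female misaligned ZT12 had 1 (beside 0.594%) and female misaligned ZT0 had 5 (beside 3.82%). Of the control libraries, male ZT12 had 1 (beside 0.712%), male ZT0 had 2 (beside 1.04%), female ZT12 had 0 (beside 0.356%) and female ZT0 had 0 (beside 0.598%). In all, 14 of 40 had a peak in some library, 12 of them in misaligned and no control libraries. Over all protein-coding genes, 15.6% had a peak in some library and 13.7% in misaligned and no control libraries. With lists of equal length, male misaligned ZT12 had 0 of the 40 (beside 0.420% of protein-coding genes). It had 6 at a -log10 q of at least 5 (beside 7.77%) and 7 within 1 kb of the TSS (beside 5.41%). Hspa5, the chaperone of the endoplasmic reticulum, was the only list gene with a peak in a control library (male ZT0) and in no misaligned one.

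The strongest of the heat shock list was St13, an Hsp70 co-chaperone, with a -log10 q of 30.2 in female misaligned ZT0. St13 was called in 6 libraries, all 4 misaligned and both male controls, so binding next to a chaperone gene was not limited to misaligned livers. Hsph1 and Hspd1 came next. Hspa9, the mitochondrial Hsp70, reached a -log10 q of 17.1 in male misaligned ZT12 and was called in the same 3 libraries as Hspd1. Dnaja2, a J-domain co-chaperone, reached a -log10 q of 11.9 (-48209 bp from the TSS), and Bag3, a co-chaperone of Hsp70, reached 10.4 (33620 bp), both far from the gene start.

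**Figure D5:**
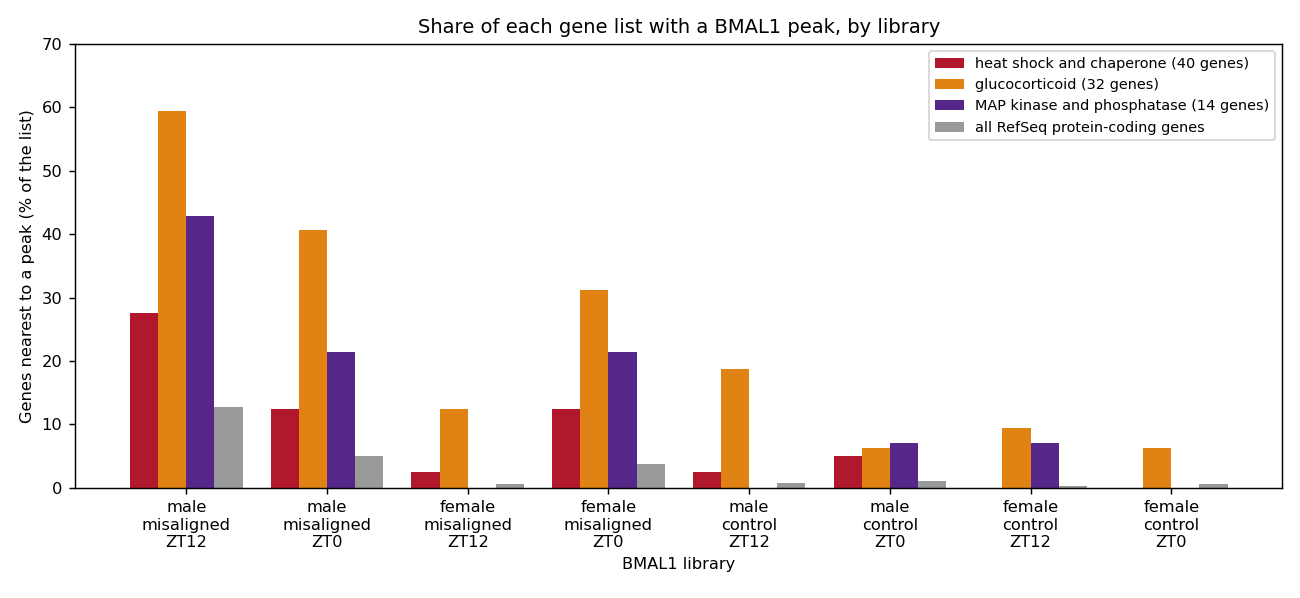
Percentage of each gene list nearest to a BMAL1 peak, in each of the 8 libraries, for the heat shock and chaperone (40 genes), glucocorticoid (32) and MAP kinase and phosphatase (14) lists, with all RefSeq protein-coding genes in grey. The glucocorticoid list is the highest of the 4 sets in 7 of the 8 libraries, male control ZT0 being the exception, with 59.4% in male misaligned ZT12 and 6.25% in female control ZT0. It includes Nr3c1 and Dusp1, and the heat shock list includes Hsph1, Hspd1 and Hspa8, all chosen by their calls. Dusp1 is left out of the MAP kinase list.

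Of 32 glucocorticoid genes, 19 had a peak in male misaligned ZT12 (59.4%, beside 12.8% of protein-coding genes), 13 in male misaligned ZT0 (beside 5.06%), 4 in female misaligned ZT12 (beside 0.594%) and 10 in female misaligned ZT0 (beside 3.82%). In control libraries there were 6 in male ZT12 (beside 0.712%), 2 in male ZT0 (beside 1.04%), 3 in female ZT12 (beside 0.356%) and 2 in female ZT0 (beside 0.598%). The members Nr3c1 and Dusp1 are in the list and among the 19. Their calls chose them, so part of the list's counts was fixed by that choice. Male misaligned ZT12 had 7 of the 32 within 1 kb of the TSS (beside 5.41%) and 2 with lists of equal length (beside 0.420%). The list holds Per1, a clock gene that the receptor also induces, called in all 8 libraries with a -log10 q of up to 336, and Klf15, called in 7 with up to 103. Tsc22d3, an anti-inflammatory target of the receptor, was called in 5 libraries with a -log10 q of up to 45.8. Klf9, a repressor induced by glucocorticoids, was called in 3 misaligned libraries with up to 34.0, at -322 bp. Serpina6, which encodes the corticosteroid carrier of plasma (-log10 q 19.6), and Akr1d1, a steroid reductase (-log10 q 19.1), were called in male misaligned ZT12 alone. Nr3c1 was 16th and Dusp1 19th of the 23 list genes with a peak, by the strongest -log10 q.

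Among 14 MAP kinases and their dual-specificity phosphatases, Dusp1 left out, 6 had a peak in male misaligned ZT12 (42.9%, beside 12.8% of protein-coding genes), 3 in male misaligned ZT0 (beside 5.06%), 0 in female misaligned ZT12 (beside 0.594%) and 3 in female misaligned ZT0 (beside 3.82%). The control libraries had 0 in male ZT12 (beside 0.712%), 1 in male ZT0 (beside 1.04%), 1 in female ZT12 (beside 0.356%) and 0 in female ZT0 (beside 0.598%). Each of these control calls was Mapk8. Male misaligned ZT12 had 3 within 10 kb of the TSS (beside 8.91%) and 0 with lists of equal length (beside 0.420%). Mapk8, a JNK kinase, was strongest (-log10 q 44.5, -57060 bp) and was called in 5 libraries. The phosphatases Dusp7 (-log10 q 34.4, -6594 bp), Dusp4 (18.3, -2303 bp), Dusp6 (4.06) and Dusp16 (2.77, 54514 bp) and the p38 kinase Mapk14 (16.7, -13917 bp) were called in misaligned libraries alone. None of the 6 had a peak within 1 kb of its TSS in male misaligned ZT12, where Dusp1 had one.

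Of 9 genes that mark hepatocytes, 6 had a peak in male misaligned ZT12 (beside 12.8% of protein-coding genes), 1 in male misaligned ZT0 (beside 5.06%), 0 in female misaligned ZT12 (beside 0.594%), 1 in female misaligned ZT0 (beside 3.82%) and 0 in each control library (beside 0.356% to 1.04%). Markers of the other liver cells were nearest to a peak in 1 of 15 cases, Stab2, in male misaligned ZT12. These are binding calls and not RNA levels, so they do not measure which cells were in the tissue.

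Intervals most like each of the 9, by call pattern and rank within the lists, were found among all 7043. The Hspd1 pattern was shared by 184 other intervals (2.61%), and the closest in rank were nearest to Dnajc16, Casc3 and Hnrnpa1. The Nr3c1 start-site pattern was shared by 306 (4.34%), closest at Atxn7l3, Rpl13a and Gm13717. The Hspa8 interval of female misaligned ZT0 shared its pattern with 395 others (5.61%), with Ackr2, Errfi1 and Dgke closest, and the intergenic Dusp1 interval with 806, with Ogfrl1, Cited2 and Trpm2 closest.

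The remaining 5 intervals shared the commonest pattern, a call in male misaligned ZT12 alone, with 4105 others. The closest in rank were Eif4g1, Gm26535 and Zfp395 to Hsph1, Ormdl3, Zcwpw1 and Rpl12-ps1 to Hspa8, and Brat1, Galnt2 and Fam188b to the Dusp1 promoter. For Nr3c1 they were Elovl2, Chst14 and Abhd2 at -1337 bp and Sertad2, Rffl and Gm11659 at -7467 bp. With so many intervals of 1 pattern, this likeness is one of rank in a single list.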

How the data were processed

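BMAL1 libraries of mouse liver, 1 per group, were analysed from the authors' deposited peak lists and merged peak table. Per the submitters' processing notes, the tools were BWA 0.7.17-r1188 and MACS2 2.2.7.1, with the build GRCm38. The q threshold, the sequencing depth and the use of IgG as control are not given in the sources used here. Each deposited list gives, per peak, a score (10 times -log10 q cut to a whole number, by its values), the fold enrichment at the summit as a ratio to local background, and the -log10 of p and of q, as written by the authors' caller. The deposited table gives whether each library was called, the count of merged peaks and of libraries and the nearest gene with its distance to the TSS.

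A gene counted in a library when an interval nearest to it overlapped a peak of that list by at least 1 bp. Whole fragments and local background at each summit were recovered from fold and -log10 p with a relative tolerance of 0.0001, which succeeded for at least 99.7% of any list, and this was tested on simulated data. The lowest local background, 4.25 to 6.16 fragments, was used to scale between libraries in place of depth. Its relation to depth was not tested. Poisson intervals are exact, at 95%, and cover counting error only. Scaled values replaced the background, or the background and the clock gene excess, of 1 library by those of another. This scaling was chosen after seeing the data. No tests were run, as each group has 1 library.

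The members and gene lists were chosen with earlier results of these data known. Genes named were the 5 genes with every interval, neighbours within 10 kb, up to 6 genes per list by highest -log10 q, the 3 intervals most like each member interval (same calls, closest rank) and 10 clock genes; other names were chosen after their values were seen. Of 10 hepatocyte markers, 9 matched a RefSeq symbol. RefSeq promoter windows were searched with Python 3.11.15 and pandas 2.3.3. The promoters of Hspa8 and Nr3c1 were not searched here, and the IgG libraries were not used here. Alternatives were -log10 q of at least 3 or 5, limits of 10 kb or 1 kb, overlap of 50% of both, lists of equal length, any RefSeq gene within 10 kb, and leaving out peaks of high background or male misaligned ZT12.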

Additional observations from a re-analysis of the deposited data

How the results depend on the processing

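The 10 calls at the 5 genes in misaligned libraries became 8 to 10 under -log10 q of at least 3 or 5, limits of 10 kb or 1 kb, overlap of 50% of both, any RefSeq gene within 10 kb, or without peaks of high background. They became 5 without male misaligned ZT12, and 0 with every list shortened to its strongest 141 peaks, the length of the shortest list. Lists of that length held 0.361% to 0.420% of protein-coding genes in the misaligned libraries. Calls in control libraries were 0 under all 8 alternatives run on them. Only that of any RefSeq gene within 10 kb could have added a call, as the others only remove peaks or links. Of the gene lists in male misaligned ZT12, the 11 heat shock genes became 6 at -log10 q of at least 5, 7 within 1 kb and 0 with lists of equal length. The 19 glucocorticoid genes became 7 within 1 kb and 2 with lists of equal length. The 6 MAP kinase genes became 3 within 10 kb, 0 within 1 kb and 0 with lists of equal length. Shortening keeps only the strongest peaks, and the best rank of a peak at the 5 genes was 175 of 1330 (Hspd1, female misaligned ZT0). With overlap of 50% of both, Hspd1 was called in 1 library in place of 3, as 2 of its peaks cover less than 50% of the merged interval. No paired analysis was possible because the groups share 1 replicate number only, and the calls chose the genes, so libraries of the same sex and time are set side by side as counts. The weakest peak at the 5 genes rests on 19 fragments.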
